A study of Mus musculus with 6 samples.

Results

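The trypsinogens Prss2, Prss3, 2210010C04Rik, Try4 and Try5 and the trypsin inhibitor Spink1 were followed in spleen RNA of NOD mice, a strain in which females develop autoimmune diabetes without any treatment. These 6 genes are among 19324 named on the array, and every probe set annotated to any of them was taken, which gave 11 of 45037 probe sets. The genes were chosen by their levels in the 3 groups on these same arrays, which were already known to differ, so the levels and the differences between groups are given as a description, without a test. No probe set was left out for a low value.

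The groups were untreated diabetic female NOD mice, TSA-treated female NOD mice, and untreated female NOD mice without diabetes. TSA, or Trichostatin A, blocks histone deacetylases and was given under the skin at 500 µg per kg of body weight every week between 18 and 24 wk of age. The TSA-treated pool held only mice free of diabetes after treatment, per the methods. The labels give an age of 32 to 36 wk for every group, while the methods give a younger age for the diabetic than for the TSA-treated mice, so that age and group cannot be told apart between these. The RNA of each group was 1 pool from 3 to 5 mice by the series description (the methods give a somewhat larger number), and each pool was put on 2 arrays. The 2 arrays therefore show the spread of labelling and hybridization and not that between mice.

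Trypsinogens are the inactive forms of trypsin. Acinar cells of the pancreas make them and store them with the other digestive enzymes, and enteropeptidase in the gut cuts them into active trypsin, which then activates the rest. Spink1 is made by the same cells and blocks trypsin that forms too early, and cathepsin B and chymotrypsin C act on trypsinogen from the opposite sides, the first activating it and the second helping to degrade it. In the mouse the trypsinogen genes lie inside the T cell receptor beta locus, a locus that is rearranged as T cells develop and that T cells express.

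In the gene order of the RefSeq annotation, 2210010C04Rik stood on chromosome 6 after Trbv1, Prss58 and 1700074P13Rik and before Trbv2. A stretch of 33 V segments, pseudogenes included, separated it from Try4. Try4, Try5, Try10, Prss3, Gm5771, Gm10334, Prss1 and Prss2 followed in that order, and the first D segment, Trbd1, came directly after Prss2. The stretch of 250 bases before the annotated start was at hand for 4 of the 6 genes (RefSeq, build GRCm38.p6) and is shown for these trypsinogens, whose probe sets shared 1 order of the groups (that of Try4 being shared with Try5). Capitals mark the letters searched for. They are the E-box CACCTG and the TC box TTTCCC, each on both strands, and the TATA box TATAAA on the gene's own strand. The E-box and the TC box are the parts of the element bound by PTF1, the acinar transcription factor complex. The distance between them was not part of the search, so a match to both is not a match to that element. The positions are chr6:41521526-41521775 (plus strand) for Prss2, chr6:41035510-41035759 (minus strand) for 2210010C04Rik, chr6:41302022-41302271 (plus strand) for Try4 and chr6:41377614-41377863 (minus strand) for Prss3.
Prss2: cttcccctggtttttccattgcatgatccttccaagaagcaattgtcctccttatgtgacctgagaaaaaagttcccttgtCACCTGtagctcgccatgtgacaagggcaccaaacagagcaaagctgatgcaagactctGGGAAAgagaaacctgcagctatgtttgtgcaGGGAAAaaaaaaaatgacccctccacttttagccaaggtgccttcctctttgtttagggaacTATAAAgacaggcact
2210010C04Rik: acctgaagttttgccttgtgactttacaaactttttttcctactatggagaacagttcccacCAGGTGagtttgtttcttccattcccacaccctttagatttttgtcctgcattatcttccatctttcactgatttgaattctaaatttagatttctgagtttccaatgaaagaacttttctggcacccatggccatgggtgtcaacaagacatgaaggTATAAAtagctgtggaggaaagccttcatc
Try4: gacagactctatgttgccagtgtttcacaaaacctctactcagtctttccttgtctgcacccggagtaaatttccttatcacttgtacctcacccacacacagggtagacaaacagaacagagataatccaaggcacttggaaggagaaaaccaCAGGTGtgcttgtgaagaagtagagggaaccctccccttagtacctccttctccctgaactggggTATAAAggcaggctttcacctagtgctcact
Prss3: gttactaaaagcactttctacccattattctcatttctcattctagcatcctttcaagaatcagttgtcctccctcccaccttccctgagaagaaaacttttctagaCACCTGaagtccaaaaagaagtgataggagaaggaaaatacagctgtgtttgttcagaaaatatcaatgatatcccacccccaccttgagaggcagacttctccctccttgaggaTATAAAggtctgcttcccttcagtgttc

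The E-box was found in 4 of 4 stretches, against 17.2% of 32807 such stretches in the table. The TATA box was also found in 4 of 4, against 7.60% of all stretches. The TC box was found only before Prss2, in 2 places and both times as GGGAAA on the gene's own strand, while 21.9% of all stretches held it. In Prss2 the E-box began 169 bases before the start and the TC boxes began 110 and 78 bases before it. The E-box began 188, 96 and 143 bases before the start of 2210010C04Rik, Try4 and Prss3, and lay on the opposite strand in 2210010C04Rik and Try4. The TATA box began 16 bases before the start in Prss2 and 28 to 31 bases before it in the other 3 genes. The 3 motifs do not overlap one another in these stretches. These matches describe letters and do not show that a factor bound there.

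**Figure D1:**
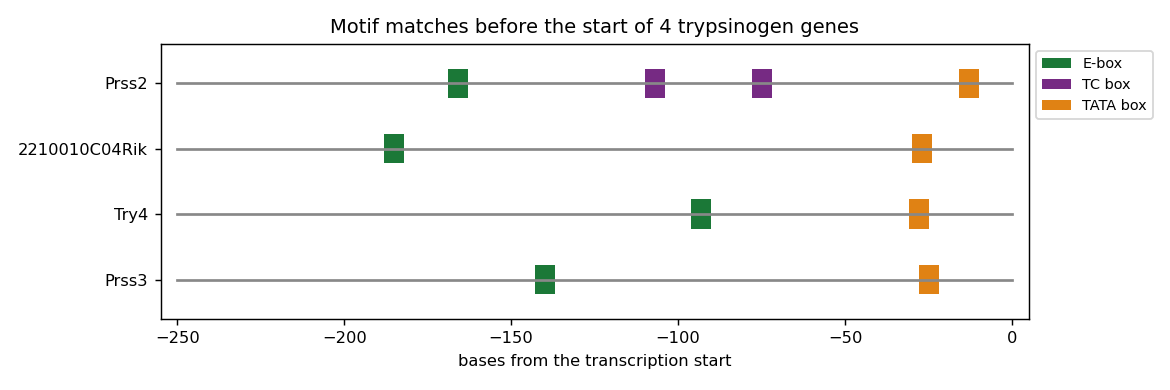
Matches to the E-box (green), TC box (purple) and TATA box (orange) in the 250 bases before the start of Prss2, 2210010C04Rik, Try4 and Prss3. The horizontal axis is the distance from the transcription start in bases, and each bar is 1 match of 6 bases. All 4 genes hold an E-box and a TATA box, and the TC box was found before Prss2 only.

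All 11 probe sets stood in the same order. Both diabetic arrays were above both TSA-treated arrays, which were above both untreated non-diabetic arrays. Of all 45037 probe sets, 275 had this order, or 0.611%, and since the order is what the genes were picked for, nothing is read from that share. Taken by pairs of groups, the arrays did not overlap and were higher in diabetic than in untreated non-diabetic mice on 21.6% of all probe sets, higher in TSA-treated than in untreated non-diabetic mice on 26.3%, and lower in TSA-treated than in diabetic mice on 11.4%. The levels below are log2 values, on which a step of 1 is a doubling of signal, and the median probe set of an array was between 3.79 and 3.95. A level of 1 probe set is not set against that of another, because probes differ in how strongly they bind. In RNA of a whole tissue, a larger number of cells with the transcript and more transcript per cell cannot be told apart.

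Prss2, the anionic trypsinogen at the end of the cluster, had 4 probe sets. On 1433459_x_at it stood at 12.24 and 12.24 in diabetic, 10.02 and 9.80 in TSA-treated and 5.63 and 5.79 in untreated non-diabetic mice. Diabetic mice were thus 6.53 ± 0.17 (log2, SE) above untreated non-diabetic mice and 2.33 above TSA-treated mice, and TSA-treated mice were 4.20 above untreated non-diabetic mice. The next probe set, 1435507_x_at, read 12.01 and 12.03 in diabetic, 10.02 and 9.77 in TSA-treated and 6.09 and 6.17 in untreated non-diabetic mice. The duplicates of every group lay close together on both of these probe sets.

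The other 2 Prss2 probe sets had close duplicates in both untreated groups but not in TSA-treated mice. On 1417682_a_at Prss2 read 12.22 and 12.30 in diabetic, 9.48 and 7.37 in TSA-treated and 6.54 and 6.69 in untreated non-diabetic mice. On 1433573_x_at it read 12.19 and 12.29 in diabetic, 9.67 and 8.05 in TSA-treated and 6.56 and 6.59 in untreated non-diabetic mice. TSA-treated replicate 2 was the low array on both, and still did not overlap with the untreated non-diabetic arrays. The difference between diabetic and TSA-treated mice was 3.84 ± 0.63 and 3.38 ± 0.49 on these probe sets, against 2.33 and 2.13 on the first pair. The difference between diabetic and untreated non-diabetic mice varied less over the 4 probe sets, at 5.65 to 6.53.

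2210010C04Rik, a trypsinogen gene at the other end of the V segments, had 3 probe sets. On 1422434_a_at it stood at 12.51 and 12.50 in diabetic, 10.22 and 10.11 in TSA-treated and 4.55 and 4.55 in untreated non-diabetic mice. Diabetic mice were 7.95 ± 0.15 and TSA-treated mice 5.61 above untreated non-diabetic mice, both the largest such differences among the 11 probe sets. The 2 untreated non-diabetic values were identical in the deposited table, as they were for 195 probe sets in all. A second probe set, 1422435_at, read 12.47 and 12.59 in diabetic, 9.70 and 8.49 in TSA-treated and 5.14 and 5.41 in untreated non-diabetic mice, with replicate 2 again the lower of the TSA-treated pair. The third, 1422436_at, read 7.04 and 7.39 in diabetic, 4.97 and 5.47 in TSA-treated and 3.88 and 4.04 in untreated non-diabetic mice. It gave smaller differences, with diabetic mice 3.26 and TSA-treated mice 1.26 above untreated non-diabetic mice. Here replicate 2 was the higher of the TSA-treated arrays.

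Try4 and Try5, neighbouring trypsinogen genes, shared the probe set 1415954_at and cannot be separated. It read 12.62 and 12.34 in diabetic, 10.35 and 8.25 in TSA-treated and 5.53 and 5.58 in untreated non-diabetic mice. The TSA-treated duplicates were 2.10 apart, while the duplicates of either untreated group were at most 0.28 apart. Diabetic mice were 6.92 ± 0.63 above untreated non-diabetic mice and 3.18 above TSA-treated mice. The SE is pooled over the 3 groups, so the wide TSA-treated pair enters it.

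Prss3, a further trypsinogen of the cluster, had 1 probe set of its own, 1450689_at. It stood at 4.18 and 4.35 in diabetic, 3.61 and 3.65 in TSA-treated and 2.60 and 2.37 in untreated non-diabetic mice, with the TSA-treated and untreated non-diabetic arrays below the array medians. Its differences were the smallest of the 11, 1.78 ± 0.17 between diabetic and untreated non-diabetic mice and 0.64 between diabetic and TSA-treated mice. Near the floor of an array a difference in signal can understate that in RNA. The second probe set, 1422682_s_at, is shared with Prss1, Gm5771 and Gm10334, and read 6.08 and 6.32 in diabetic, 4.97 and 3.97 in TSA-treated and 2.95 and 2.97 in untreated non-diabetic mice. It is the only reading here of those 3 genes, and no other listed trypsinogen gene of the region had a probe set of its own. The trypsinogens are close in sequence, so a probe set named for one may also bind RNA of another.

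Spink1, the inhibitor, lies on chromosome 18 and showed the same order of groups. On 1415938_at it stood at 7.68 and 7.60 in diabetic, 5.91 and 6.36 in TSA-treated and 2.78 and 2.89 in untreated non-diabetic mice. Diabetic mice were 4.81 ± 0.20 above untreated non-diabetic mice and 1.51 above TSA-treated mice, and TSA-treated mice were 3.30 above untreated non-diabetic mice. The untreated non-diabetic arrays were below the array medians for Spink1 as well. In TSA-treated mice replicate 2 read higher than replicate 1, by 0.45, the opposite of what the shared Try4 and Try5 probe set showed.

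**Figure D2:**
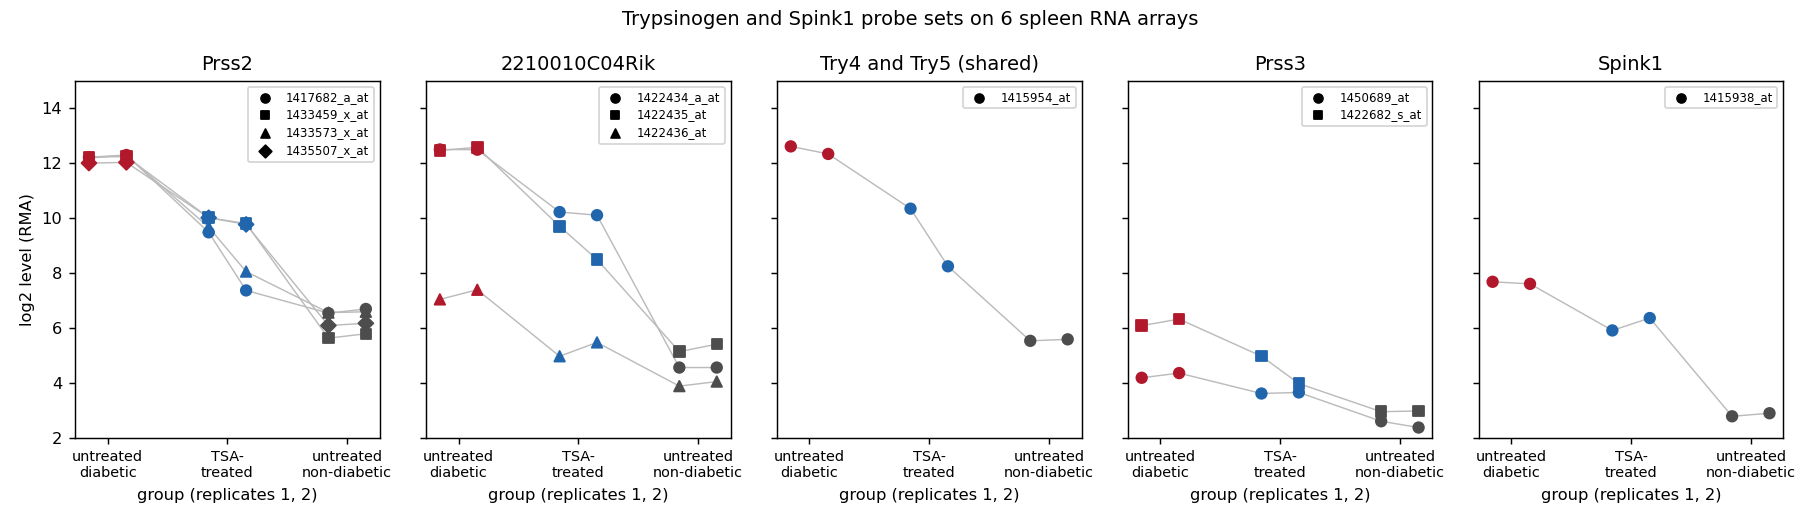
Log2 level (vertical axis) of each probe set on the 6 arrays, 1 panel per gene, with diabetic (red), TSA-treated (blue) and untreated non-diabetic (grey) arrays from left to right and replicate 1 left of replicate 2. Each marker shape is 1 probe set and grey lines join its arrays. The 3 groups stay in the same order without overlap, and the TSA-treated pair is wide on the probe sets Prss2 1417682_a_at and Try4/Try5 1415954_at, at 9.48 and 7.37 and at 10.35 and 8.25.

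The median difference over the 11 probe sets was 5.67 between diabetic and untreated non-diabetic mice, 3.30 between TSA-treated and untreated non-diabetic mice and 2.33 between diabetic and TSA-treated mice. The medians over all probe sets were 0.01, 0.05 and -0.02 for the same comparisons. These comparisons share arrays, so their differences are not independent. As a description on the log2 scale, TSA-treated mice kept a median of 54.0% of the difference between diabetic and untreated non-diabetic mice. The share ran between 32.1% (Prss2 1417682_a_at) and 70.6% (2210010C04Rik 1422434_a_at), and that of Spink1 was 68.6%. It depended on the TSA-treated array for some probe sets. With replicate 1 alone it was 50.8% for Prss2 1417682_a_at and 69.2% for the shared Try4 and Try5 probe set, and with replicate 2 alone it was 13.3% and 38.9% for the same probe sets. For 2210010C04Rik 1422434_a_at it was 71.3% and 69.9% with either array. It also ran between 32.1% and 64.4% over the 4 probe sets of Prss2 alone, so that much of the range lay within 1 gene.

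Counts of calls are given beside the background only for orientation. With limma over all probe sets at an adjusted p under 0.05, 8 of 11 were called higher in diabetic than in untreated non-diabetic mice, where 0.0866% of all probe sets were. The 3 uncalled were Prss2 1417682_a_at and both probe sets of Prss3. Fewer were called without either untreated non-diabetic array or diabetic replicate 2, and more without either TSA-treated array, as over all probe sets. The median difference of the 11 was 5.62 to 5.72 without single arrays. Set against untreated non-diabetic mice, TSA-treated mice had 4 of 11 called higher (background 0.0577%), namely Prss2 1433459_x_at and 1435507_x_at, 2210010C04Rik 1422434_a_at and Spink1. None was called without either untreated non-diabetic array, 9 without TSA-treated replicate 1 and 8 without TSA-treated replicate 2. Between diabetic and TSA-treated mice 2 of 11 were called higher in diabetic mice (background 0.0244%), Prss2 1433459_x_at and 2210010C04Rik 1422434_a_at. These 2 calls were lost with a block for the replicate number and without any single array other than TSA-treated replicate 1. Without that array more were called, as over all probe sets. The median difference of the 11 was 2.22 to 2.39 without single arrays. No probe set of these genes was called lower in any comparison, where 0.00222%, 0.0111% and 0.00222% of all probe sets were in the 3 comparisons as listed.

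**Figure D3:**
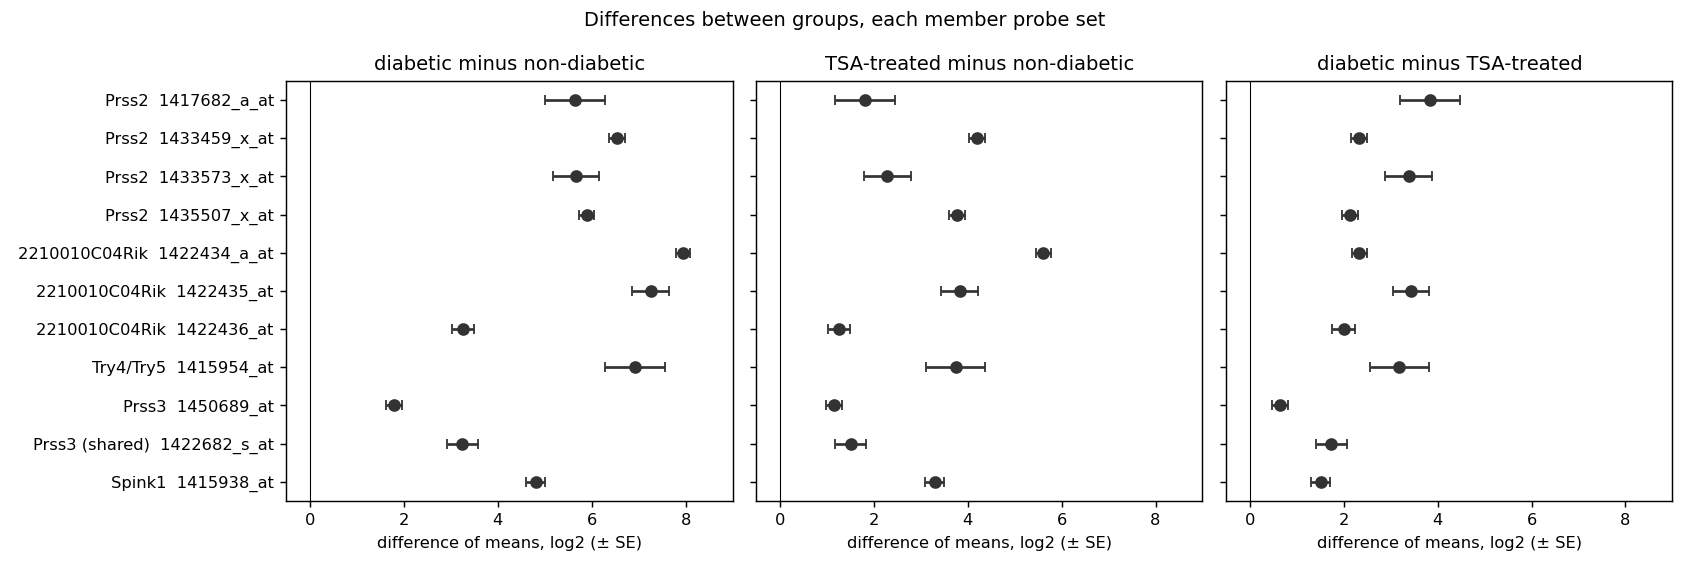
Difference of group means on the log2 scale (horizontal axis, bars ± SE from limma) for each of the 11 probe sets, with diabetic minus untreated non-diabetic, TSA-treated minus untreated non-diabetic and diabetic minus TSA-treated mice from left to right. All values lie above 0, between 1.78 and 7.95 in the left panel, 1.15 and 5.61 in the middle panel and 0.64 and 3.84 in the right panel. The wide bars belong to probe sets whose TSA-treated duplicates lay far apart.

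The spread between TSA-treated arrays was not shared by all probe sets of a gene. Replicate 1 exceeded replicate 2 by over 1 on 4 of 11 probe sets (Prss2 1417682_a_at and 1433573_x_at, 2210010C04Rik 1422435_at and the shared Try4 and Try5 probe set) and on 6.61% of all probe sets, or 13.5% of those with a mean above 8 in the group. The gaps of Prss2 were 2.12, 0.21, 1.62 and 0.24 over its 4 probe sets, and those of 2210010C04Rik were 0.11, 1.21 and -0.51 over its 3. In diabetic mice the gaps of the 11 probe sets were between -0.35 and 0.28, and in untreated non-diabetic mice between -0.27 and 0.23. The arrays also differed in how evenly they read the ends of control transcripts. The beta-actin probe set near the 3′ end exceeded that near the 5′ end by 2.42 and 3.32 in diabetic, 3.45 and 5.61 in TSA-treated and 2.35 and 2.05 in untreated non-diabetic mice. For Gapdh these gaps were 1.82 and 3.19 in diabetic, 3.85 and 4.58 in TSA-treated and 2.67 and 1.91 in untreated non-diabetic mice. TSA-treated replicate 2 thus had the widest gap for both, a sign used to judge RNA integrity and labelling. Its part in the low trypsinogen readings of that array was not tested, and where each probe lies along its transcript was not used here.

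**Figure D4:**
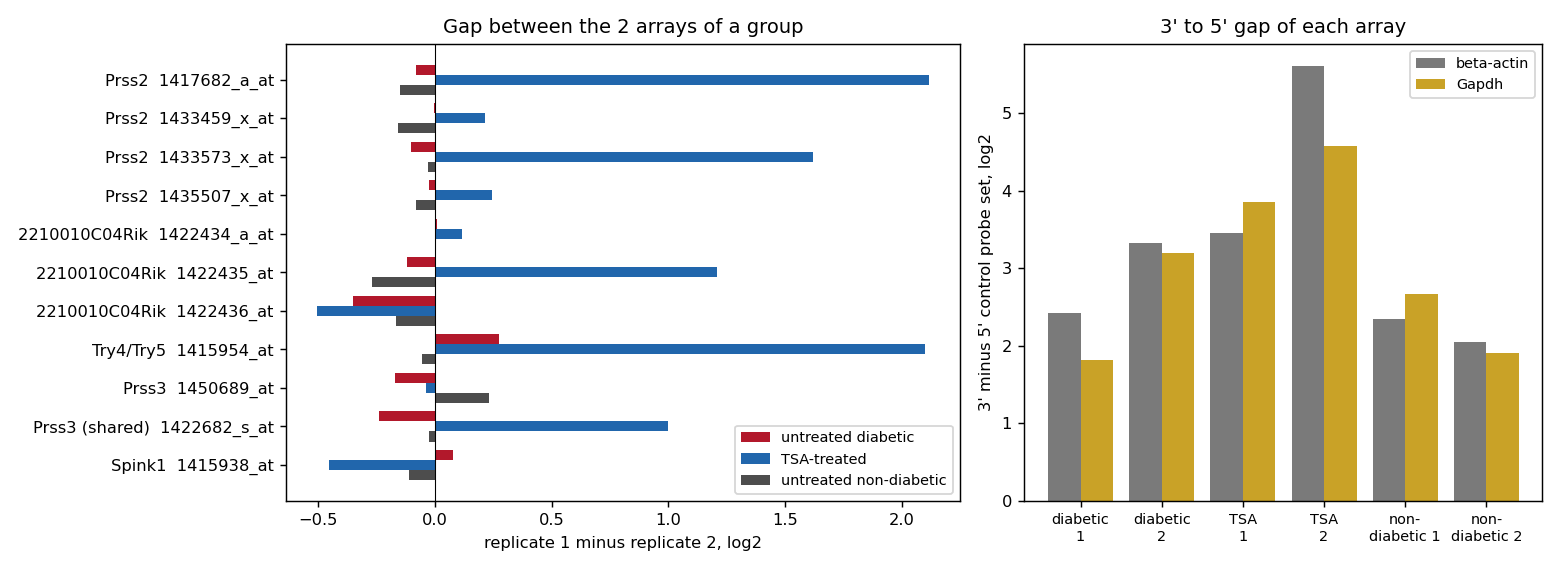
Left, replicate 1 minus replicate 2 (log2, horizontal axis) of each probe set in diabetic (red), TSA-treated (blue) and untreated non-diabetic (grey) mice. Right, the 3′ minus 5′ gap (log2, vertical axis) of the beta-actin (grey) and Gapdh (yellow) control probe sets on each array. TSA-treated gaps reach 2.12 for Prss2 1417682_a_at, and the beta-actin gap reaches 5.61 on TSA-treated replicate 2.

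Genes that act on trypsinogen were read from lists of known function. Ctrc, chymotrypsin C, is itself a product of acinar cells and stood at 10.70 and 10.48 in diabetic, 7.80 and 6.99 in TSA-treated and 6.09 and 6.05 in untreated non-diabetic mice. It rose by 4.52 in diabetic against untreated non-diabetic mice (adjusted p = 0.0072 from limma). The call was lost without either untreated non-diabetic array or diabetic replicate 2 (adjusted p of 0.131 to 0.175) and in the methods' t-test (0.449). Ctrc was uncalled between diabetic and TSA-treated mice, at a difference of 3.19 (adjusted p = 0.0669), and was called there by the local pooled error test, with an intensity trend, with quantile normalization again, with a filter on dim probe sets and without TSA-treated replicate 1. The trypsinogen activator cathepsin B (Ctsb, chosen after its values were seen) is a lysosomal protease of many cells and was level, at 12.05 and 12.41 in diabetic, 12.30 and 11.88 in TSA-treated and 12.01 and 11.96 in untreated non-diabetic mice.

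Apart from Ctrc, 53 of 65 listed genes of the pathway were measured, and limma called 0 of them in any of the 3 comparisons. In either direction it called 0.0888% of all probe sets between diabetic and untreated non-diabetic mice, 0.0688% between TSA-treated and untreated non-diabetic mice and 0.0266% between diabetic and TSA-treated mice. An unadjusted p under 0.05 was reached by 4 of them between diabetic and untreated non-diabetic mice, 7 between TSA-treated and untreated non-diabetic mice and 4 between diabetic and TSA-treated mice. The local pooled error test called 1, Gzma, and that in the first of these comparisons only. Over the 53 genes the median difference was 0.05 in that comparison, 0.10 in the second and 0.01 in the third.

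Among 14 measured inhibitors of trypsin other than Spink1, Serpina1b, an alpha-1-antitrypsin, differed by -0.17 between diabetic and untreated non-diabetic mice and by -1.04 between TSA-treated and untreated non-diabetic mice. Spint2, a membrane-bound Kunitz inhibitor, differed by -0.62 and -0.71 in these comparisons. Serpini2, also known as pancpin and made in the pancreas (chosen after its values were seen), read 4.61 and 5.40 in diabetic, 3.39 and 3.67 in TSA-treated and 2.92 and 3.02 in untreated non-diabetic mice. Its arrays stood in the same order as those of Spink1 without overlap, but it was not called (difference 2.03 between diabetic and untreated non-diabetic mice, adjusted p = 0.325 from limma), except without diabetic replicate 1.

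In the Spink family 6 further genes were measured. Spink4 differed by 0.22 between diabetic and untreated non-diabetic mice and Spink2 by 0.01. Among the Spink genes read here Spink1 alone had a difference of over 1 in that comparison, without a test between them. Spink1 was chosen for its levels, however, and Spink5, Spink8, Spink10 and Spink12 were below the array medians throughout. Of the protease-activated receptors, which trypsin-like enzymes cleave, 3 of 4 listed were measured and F2rl1 was not. F2r differed by -0.39 and F2rl2 by -0.11. Of 25 measured trypsin-like proteases of other cells, Gzma, granzyme A of killer lymphocytes, differed by 1.51 (adjusted p = 0.528 from limma) and Prss23 by -0.55. Klk1, tissue kallikrein (chosen after its values were seen), had 4 probe sets that did not read alike. The one with the highest mean, 1455977_x_at, differed by 0.34 between diabetic and untreated non-diabetic mice. On 1415837_at Klk1 read 8.09 and 8.53 in diabetic, 5.73 and 4.39 in TSA-treated and 4.32 and 4.12 in untreated non-diabetic mice, and on 1448107_x_at 8.10 and 8.46, 5.78 and 4.06, and 3.81 and 3.18 for the same groups. Both had the order of the trypsinogen probe sets without overlap, with diabetic mice 4.09 and 4.78 above untreated non-diabetic mice, but neither was called (adjusted p = 0.0913 and 0.134 from limma). Klk1 was called in that comparison where its probe sets were averaged. On 1448107_x_at it ranked 16 among genes by nearness to the mean profile given below. The cells that Klk1 RNA came from were not tested, whatever the name of its list.

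The neighbours of the trypsinogen genes on chromosome 6 were read where they had a probe set. Prss58, a trypsin-like gene of the same cluster, stood at 2.60 and 2.85 in diabetic, 2.80 and 3.06 in TSA-treated and 2.89 and 2.64 in untreated non-diabetic mice, below the array medians throughout. Moxd2 and 1700074P13Rik differed by 0.12 and 0.13 between diabetic and untreated non-diabetic mice. Trbv1, a V segment that T cells express, read 8.94 and 8.61 in diabetic, 8.60 and 7.57 in TSA-treated and 9.44 and 9.26 in untreated non-diabetic mice. Its difference of -1.26 between TSA-treated and untreated non-diabetic mice was not called, except without TSA-treated replicate 1. Trbv13-2, between 2210010C04Rik and Try4, differed by less than 0.01 in each comparison. With all arrays limma and the local pooled error test called 0 of these 5 neighbours in any comparison, 1 (Trbv1) reached an unadjusted p under 0.05 in 1 of them, and the largest excess of diabetic over untreated non-diabetic mice was 0.13.

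The other digestive enzymes of the acinar cell were set beside the trypsinogens. Of 16 listed, 13 were measured, and limma called 12 higher in diabetic than in untreated non-diabetic mice, 8 higher in TSA-treated than in untreated non-diabetic mice and 6 higher in diabetic mice when these were set against TSA-treated mice. In the first of these comparisons the largest rises were 7.91 ± 0.19 (log2, SE) for Clps, the cofactor colipase, and 7.53 ± 0.17 for Cpb1, 6.98 ± 0.27 for Cpa1 and 6.91 ± 0.18 for Cela3b, which are a pair of carboxypeptidases and an elastase. These counts were 8 in the first comparison when either untreated non-diabetic array was left out, and also when diabetic replicate 2 was, and 0 in the second without either untreated non-diabetic array. In the third they were 0 with a block for the replicate number, with these groups fitted alone, with median centring and without any single array other than TSA-treated replicate 1, and 13 without that array. The methods' t-test called 0 in each. Their median differences were 6.17, 3.19 and 2.81 in these comparisons, against 5.67, 3.30 and 2.33 for the trypsinogen and Spink1 probe sets. They kept a median of 53.4% of the diabetic difference in TSA-treated mice (24.5% to 69.4%), against 54.0% (32.1% to 70.6%). TSA-treated replicate 1 exceeded replicate 2 by over 1 in 3 of the 13. No difference between the enzyme genes and the trypsinogens was tested.

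By the likeness of their levels over the 6 arrays, each taken from its own mean, the 5 genes nearest to the trypsinogens and Spink1 were Rnase1, Pnliprp1, Pnliprp2, Dmbt1 and Ctrl. Their root mean square difference from the mean profile was 0.16, 0.20, 0.29, 0.35 and 0.38 log2. Rnase1, pancreatic ribonuclease, read 10.69 and 10.74 in diabetic, 8.35 and 8.07 in TSA-treated and 5.38 and 5.29 in untreated non-diabetic mice. Pnliprp1 and Pnliprp2 are lipase-related proteins of the pancreas and Ctrl is a chymotrypsin-like protease, and Dmbt1 is a secreted scavenger receptor of epithelia. The probe sets of the 6 genes were themselves 0.36 (Prss2 1435507_x_at) to 1.44 (Prss3 1450689_at) away from that profile.

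**Figure D5:**
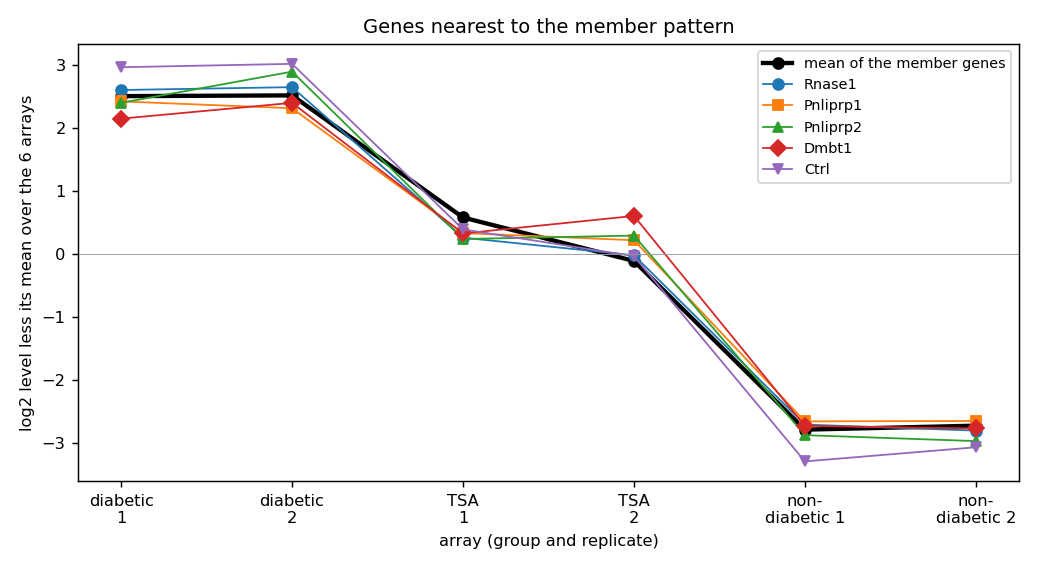
Log2 level less its mean over the 6 arrays (vertical axis) for the mean of the trypsinogen and Spink1 profiles (black, 5 gene profiles since Try4 and Try5 share 1) and for Rnase1, Pnliprp1, Pnliprp2, Dmbt1 and Ctrl (colours), with diabetic, TSA-treated and untreated non-diabetic arrays from left to right. The mean profile was 2.51 and 2.52 in diabetic, 0.58 and -0.11 in TSA-treated and -2.78 and -2.72 in untreated non-diabetic mice.

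Markers of the cells that a spleen or an adjoining pancreas could hold were read on the same arrays. The mean level of the 13 other digestive enzymes was 11.04 and 11.07 in diabetic, 8.37 and 7.84 in TSA-treated and 4.92 and 4.79 in untreated non-diabetic mice, and so moved with the trypsinogens. Regulators and markers of the acinar cell were measured for 8 genes, the hormone secretin (Sct) among them, and limma called 0 of these in each comparison. An unadjusted p under 0.05 was reached by 2 between diabetic and untreated non-diabetic mice, 0 between TSA-treated and untreated non-diabetic mice and 2 between diabetic and TSA-treated mice. Ptf1a, Gata4 and Cckar were below the array medians throughout, where a difference can be understated. Over the 8 genes the median difference between diabetic and untreated non-diabetic mice was 0.29, and that of Cckar was 0.76. Gp2, the main membrane protein of the zymogen granule, read 9.56 and 9.71 in diabetic, 7.43 and 5.61 in TSA-treated and 6.49 and 5.92 in untreated non-diabetic mice. Limma called it between diabetic and untreated non-diabetic mice only where these groups were fitted alone or a TSA-treated array was left out (adjusted p = 0.528 with all arrays), and the local pooled error test called it between diabetic mice and either other group. Bhlha15, a factor of secretory cells, differed by -0.10. The 8 islet markers and 5 duct markers had 0 called by limma or the local pooled error test and 0 at an unadjusted p under 0.05 from limma, with mean levels of 3.05 to 3.31 on every array, below the array medians. B cell markers averaged 10.32 and 10.14 in diabetic, 9.54 and 8.16 in TSA-treated and 10.40 and 10.53 in untreated non-diabetic mice, and T cell markers 7.11 and 7.24, 7.02 and 6.77, and 7.50 and 7.61 in the same order of groups. Adipocyte markers averaged 6.74 and 7.17 in diabetic, 4.85 and 5.00 in TSA-treated and 7.56 and 7.48 in untreated non-diabetic mice. Limma called 2 of the 3 measured, Adipoq and Car3, lower in TSA-treated than in untreated non-diabetic mice (-3.40 and -3.90) and lower in TSA-treated than in diabetic mice, which stood 3.06 and 3.18 above them. The first of these counts was 0 without either untreated non-diabetic array, and the second was 0 with the replicate block and without any single array other than TSA-treated replicate 1. The part of pancreas RNA in the spleen samples was not tested.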

How the data were processed

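Total RNA of spleen cells was hybridized to the Affymetrix Mouse Genome 430 2.0 array, in duplicate for each group. Per the methods, the authors quantile-normalized the arrays and summarized the probes by RMA (S-Plus 6.2, S+Array Analyzer 2.0.1). The table they deposited holds log2 values. They carry no detection call, so that low levels have no stated bound. Of 45101 probe sets, 64 controls were left out of the tests. Annotation came from the GEO platform table, in which 34945 probe sets name 1 gene, 932 several and 9160 none. Gene order, names and stretches before the start came from RefSeq.

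A linear model with a mean for each group was fitted to all 6 arrays in limma 3.58.1 (R 4.3.3), where the prior had 2.94 and the residual 3 degrees of freedom. P-values were adjusted by Benjamini-Hochberg over 45037 probe sets and called under 0.05. The methods name a t-test, the local pooled error (LPE) test and analysis of variance, of which the first 2 were run as alternatives. LPE was written anew from its published form. The SE of a probe set rests on the duplicates of all 3 pools and on the prior, and does not describe mice. Wide TSA-treated duplicates therefore also widen the SE between the untreated groups. The 6 genes, the 17 gene lists and the tests were chosen with earlier results of these data known. Named genes were all probe sets of the 6 genes, up to 4 called genes of a pathway list (otherwise the 2 with the highest mean), and the 5 nearest profiles; further ones are marked as chosen later, and neighbours were taken by position. A gene with several probe sets was read by that with the highest mean that names it alone. Alternatives were a replicate block, leaving out each array, fitting 2 groups alone, LPE, the methods' t-test, an intensity trend, median centring, quantile normalization again, a filter on dim probe sets (22518 passed, 10 of the 11 among them), averaging every probe set of a gene and only probe sets naming 1 gene. Limma, LPE and the t-test were run on simulated data first.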

Additional observations from a re-analysis of the deposited data

How the results depend on the processing

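The median differences of the 11 probe sets stayed within the spread of the duplicates under every alternative run, and without single arrays lay at 5.62 to 5.72 (diabetic minus untreated non-diabetic), 2.69 to 3.36 (TSA-treated minus untreated non-diabetic) and 2.22 to 2.39 (diabetic minus TSA-treated). Counts of calls were less stable, and the cause was not tested. In the same order of comparisons, limma called 40, 31 and 12 of all probe sets and 8, 4 and 2 of the 11. LPE called 215, 716 and 52 of all, 8 of the 11 in the second and 7 in the third comparison, and Gzma as 1 of the other pathway genes in the first. The methods' t-test after adjustment called 1, 0 and 0 of all, and 1, 0 and 0 of the 11 (2210010C04Rik 1422434_a_at). At the methods' stricter threshold it had 8, 2 and 1 of the 11 unadjusted, and LPE 10, 7 and 5 adjusted. The share of all probe sets at that threshold was not taken, so nothing is read from these counts. Fitting 2 groups alone gave 714 in the second comparison and, in the third, 0 of all and 0 of the 11. Quantile normalization again gave 60 in the second. Median centring gave 0 of all and 0 of the 11 in the third, and the dim filter 22 of all. Averaging every probe set of a gene called 1 other pathway gene, Klk1, in the first.

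Duplicates share only a number. Deviations of replicate 1 correlated between groups by -0.335, -0.0363 and -0.105. With the replicate block limma called 33, 30 and 0 of all and 6, 4 and 0 of the 11, and with the diabetic numbers crossed (a setting chosen after these correlations were seen) 41, 27 and 0 of all and 7, 4 and 0 of the 11.

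Without single arrays the counts ran over 23 to 243, 0 to 2045 and 0 to 1047 of all probe sets, 4 to 10, 0 to 9 and 0 to 10 of the 11, and 0 to 1, 0 to 2 and 0 to 1 of the other pathway genes (Serpini2 without diabetic replicate 1, C1ra and Prss22 without TSA-treated replicate 1). The highest counts of all probe sets came without diabetic replicate 1 (243) and without TSA-treated replicate 1 (2045 and 1047). Where 1 array was left in a group, it was assumed to vary like the others. Over all alternatives, of the differences of single probe sets and genes 1143 kept their side of the threshold or stayed within the spread, 44 lost a call, 23 gained one and 2 moved by more than the spread, and none changed sign while called. The spread between mice was not measured, since each group was 1 pool.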
